A study of Mus musculus with 6 samples.

Results

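The 2'-5' oligoadenylate synthetase (OAS) genes Oas1a, Oas1b, Oas1c, Oas1g, Oas2, Oas3, Oasl1 and Oasl2 were followed in mDE6 cells with and without a hairpin against Arl4c. They make up 8 of the 22032 genes listed in the deposited table, and were taken by gene symbol. The family was selected on the difference in its expression values between the Arl4c hairpin and control libraries, which was already known, so the differences between the groups are given for these 8 genes as a description, without a test.

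OAS enzymes bind double-stranded RNA and then join ATP into short 2'-5' linked oligoadenylates (2-5A). The 2-5A is a messenger of the antiviral response, in which RNA is cut and translation of viral and cellular messages halts. Type I interferon raises the transcription of OAS genes through a complex that holds STAT2 and IRF9 and binds the interferon-stimulated response element (ISRE). In the mouse, Oas1 has been duplicated into a row of 8 copies.

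The 6 libraries came from total RNA of the mouse line mDE6, 3 expressing shArl4c, a short hairpin RNA against the small GTP-binding protein gene Arl4c, and 3 expressing a control hairpin, shControl. They are called shArl4c 2, 3 and 4 and shControl 1, 2 and 3 after the numbers in the table. The labels give no tissue of origin, tell apart no second Arl4c hairpin and do not say whether libraries of a group were separate cultures. Effects of less Arl4c, other effects of carrying this hairpin and differences between cultures therefore cannot be told apart, and a p-value here sets a difference against the spread between libraries, which may be technical. Values are CPM (reads per library brought to one common size), and the mean ± SD is over n = 3 libraries a group.

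The libraries held 12941166 to 13780358 reads in shArl4c and 12316770 to 14976113 in shControl, so that 1 read was worth 0.0672 to 0.0827 CPM. Arl4c stood at 7.02 ± 0.353 CPM in shArl4c and 20.6 ± 0.480 CPM in shControl. By limma, 5445 of 14740 tested genes (36.9%) passed an adjusted p of 0.05. Library shArl4c 3 stood apart from its group, with a chi-square of 4.87 to 5.74 per degree of freedom against the other shArl4c libraries, where the other within-group pairs gave 1.54 to 2.30. The mesenchymal markers summed to 24635 to 25268 CPM in shArl4c and 39779 to 41281 CPM in shControl, and the epithelial markers to 7.65 to 8.42 and 5.98 to 6.93 CPM. Of the 8 mesenchymal markers 2 rose (Pdgfra and Pdgfrb), 4 fell (Col1a1, Col1a2, Fn1 and Prrx1) and 2 did not pass (Vim and Twist1). Over all tested genes, 18.9% were called higher and 18.0% lower. Col1a1, Col1a2 and Fn1 held most of the mesenchymal sum, and Pdgfra rose 1.69-fold. The epithelial cadherin gene Cdh1 was at 0 reads in shArl4c and 0.321 ± 0.0223 CPM in shControl, which rests on 4, 5 and 4 reads. Krt14, Krt8 and Trp63 of the same list had higher means in shArl4c, and Krt5 and Krt18 lower ones. Trp63, the 1 epithelial marker tested, held most of the epithelial sum. It stood at 6.37 ± 0.178 CPM in shArl4c and 5.17 ± 0.254 CPM in shControl and did not pass (limma adjusted p = 0.106). The part of these markers, or of shArl4c 3 beyond the values given without it, in the results was not tested.

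The promoters of these genes are shown first because the ISRE is the element through which interferon is known to act on them. RefSeq promoters (GRCm38.p6, 250 bases before to 50 after the start) matched 8 of the 12 family symbols searched, and 6 of these 8 belonged to members. The ISRE core was searched on both strands as GAAA, any 2 bases, and GAAA again. It was found in 4 of the 6 member promoters, those of Oas1a, Oas1g, Oas1c and Oas3, and in neither promoter of the copies Oas1f and Oas1h, which were not analysed here. Of all 32851 promoters of this length, 3.44% held it. The 100-base stretches below lie upstream of the start, read 5' to 3' on the gene's strand, and the capitals mark the ISRE core matches.
Oas1a: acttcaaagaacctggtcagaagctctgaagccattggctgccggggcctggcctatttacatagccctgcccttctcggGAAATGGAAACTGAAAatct
Oas1g: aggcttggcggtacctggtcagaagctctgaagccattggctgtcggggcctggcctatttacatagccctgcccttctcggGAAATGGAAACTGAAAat
Oas1c: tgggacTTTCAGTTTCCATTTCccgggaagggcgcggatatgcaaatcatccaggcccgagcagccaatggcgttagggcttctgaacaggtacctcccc
Oas3: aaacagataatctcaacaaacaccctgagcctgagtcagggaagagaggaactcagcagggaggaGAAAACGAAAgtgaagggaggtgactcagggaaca

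These stretches lie on the minus strand of chromosome 5, at chr5:120907526-120907625 for Oas1a, chr5:120887614-120887713 for Oas1g, chr5:120812535-120812634 for Oas1c and chr5:120777700-120777799 for Oas3, all in GRCm38.p6 and not in the GRCm39 build of the deposited values. Oas1a and Oas1g carried the same pair of overlapping matches, which began at positions -20 and -14 in Oas1a and at -18 and -12 in Oas1g. In Oas1c the overlapping pair lay on the opposite strand and began at -114 and -108. Read on that strand, its 16 bases have the same letters as the pair in Oas1a. They lie 7 to 22 bases before the annotated start of Oas1b, which is transcribed away from Oas1c on the plus strand. Oas3 held 1 match, at -75. The whole promoters of Oas1a and Oas1g were 88.8% identical over 294 aligned bases. The gamma-activated sequence core, TTCNNNGAA, which reads the same on both strands, was found in 1 of the 8 promoters, that of Oas1a at -98, against 8.30% of all promoters. A match is a description of these letters, not evidence of a bound site, and Oasl1 and Oasl2 had no match of either core in this window.

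**Figure D1:**
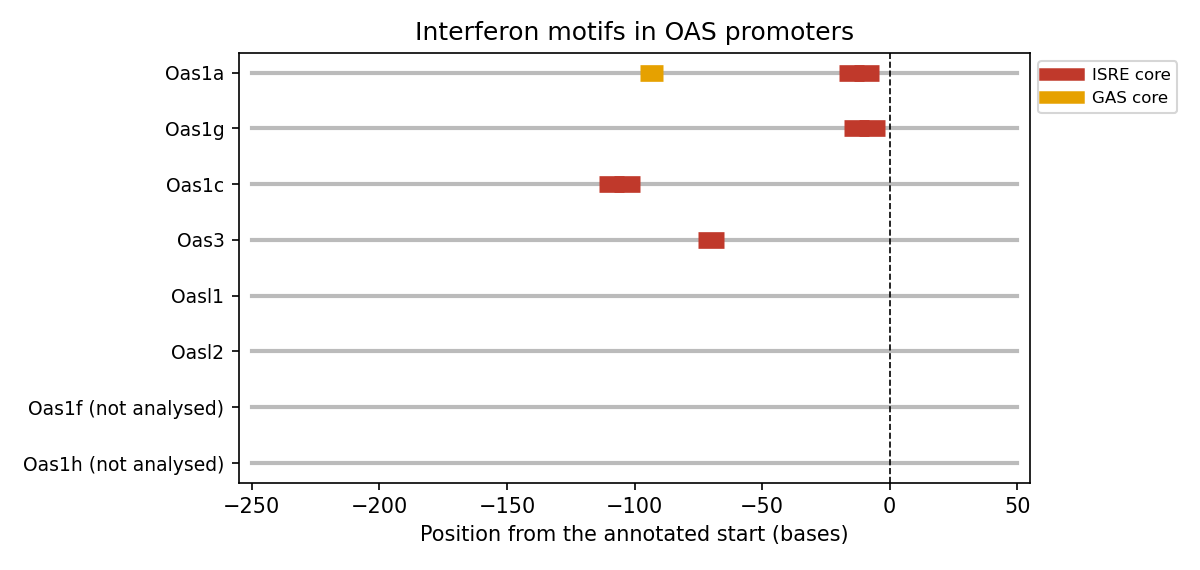
Positions of the ISRE core (red) and the gamma-activated sequence core (GAS, yellow) in 8 OAS promoters from RefSeq, in bases from the annotated start (dashed line); each grey bar is 1 promoter. The ISRE matches of Oas1a and Oas1g lie within 20 bases of the start, and 4 promoters have no match.

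All 8 OAS genes were higher in shArl4c than in shControl, in every library. The 8 genes together stood at 150.3, 156 and 147 CPM in shArl4c 2, 3 and 4, against 23.7, 26.3 and 26.9 CPM in shControl 1, 2 and 3. The summed level was 151 ± 4.72 CPM in shArl4c and 25.6 ± 1.70 CPM in shControl, 5.90-fold higher (95% interval 5.53 to 6.31 on the summed reads, counting error only). Thus 8 of 8 members did not overlap between the groups, where over all tested genes 46.8% did not overlap in either direction and 24.3% had every shArl4c library above every shControl library. By limma, 18.9% of all tested genes were called higher. Nothing is read from the members' count against these shares, since the genes were chosen with this contrast known. In bulk RNA, more RNA per cell and more cells that express a gene cannot be told apart.

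**Figure D2:**
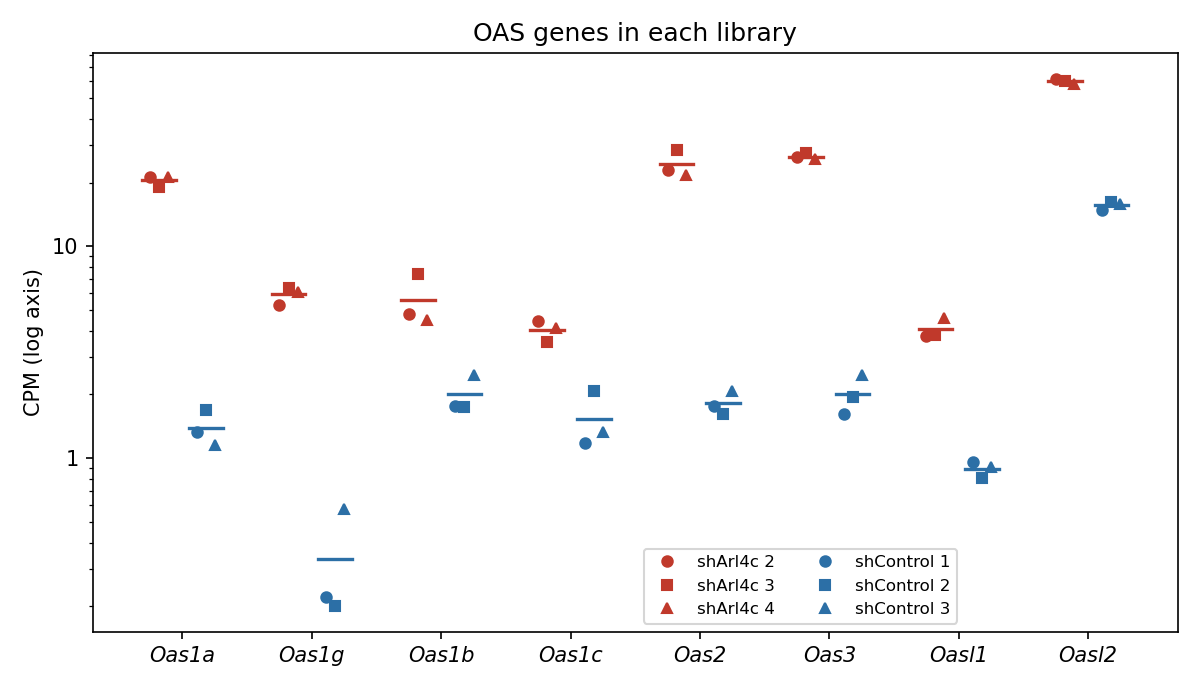
CPM of each OAS gene in each library on a log axis; points are libraries (shArl4c red, shControl blue) and bars are the means of 3. The groups are separate for the 8 OAS genes, with the widest gaps at Oas1a, Oas1g, Oas2 and Oas3.

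Among the Oas1 copies, Oas1a and Oas1g, whose products make 2-5A in the mouse, differed far more between the groups than Oas1b and Oas1c. Oas1a had 21.3, 19.0 and 21.4 CPM in shArl4c 2, 3 and 4, against 1.33, 1.68 and 1.16 CPM in shControl 1, 2 and 3. That is 20.6 ± 1.33 CPM in shArl4c and 1.39 ± 0.267 CPM in shControl. The log2 fold change of CPM + 1 was 3.18 (SE 0.13). Oas1g, the gene closest to Oas1a, had 5.30, 6.37 and 6.12 CPM in shArl4c 2, 3 and 4, against 0.221, 0.202 and 0.579 CPM in shControl 1, 2 and 3. Its shControl values rest on 3, 3 and 7 reads, so its 18.5-fold read ratio has a 95% interval of 10.6 to 35.2 from counting error alone. No shControl library came near the lowest shArl4c library for either gene.

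Oas1b is the mouse flavivirus resistance gene, and many laboratory strains carry a premature stop codon in it; the RefSeq gene table lists it as a transcribed pseudogene. It had 4.79, 7.42 and 4.52 CPM in shArl4c 2, 3 and 4, against 1.77, 1.75 and 2.48 CPM in shControl 1, 2 and 3. The groups did not overlap, and shArl4c 3 lay above the other 2 shArl4c libraries. The difference was 2.79-fold with that library and 2.33-fold without it. Oas1c, another copy of the same row, had 4.43, 3.52 and 4.13 CPM in shArl4c 2, 3 and 4, against 1.18, 2.08 and 1.32 CPM in shControl 1, 2 and 3. Its fold was 2.63, and 2.80 without shArl4c 3, so that Oas1c differed least of the 8 OAS genes with that library and Oas1b without it. Its lowest shArl4c library was still above its highest shControl library. The copies Oas1d, Oas1e, Oas1f and Oas1h were not analysed here.

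Reads of the Oas1 copies can be split wrongly between them, because parts of their transcripts are the same. The longest coding transcripts of Oas1a and Oas1g (GENCODE M21, GRCm38) were 97.7% identical over 1859 aligned bases. Of all 100-base windows of the Oas1a transcript, 40.9% also occurred in Oas1g, and 38.2% of those of Oas1g occurred in Oas1a. With 50-base windows the shares were 57.6% and 54.1%. No 100-base window of Oas1b or Oas1c occurred in another gene, and of their 50-base windows 3.20% and 10.7% did. The sources used here do not give the read length.

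**Figure D3:**
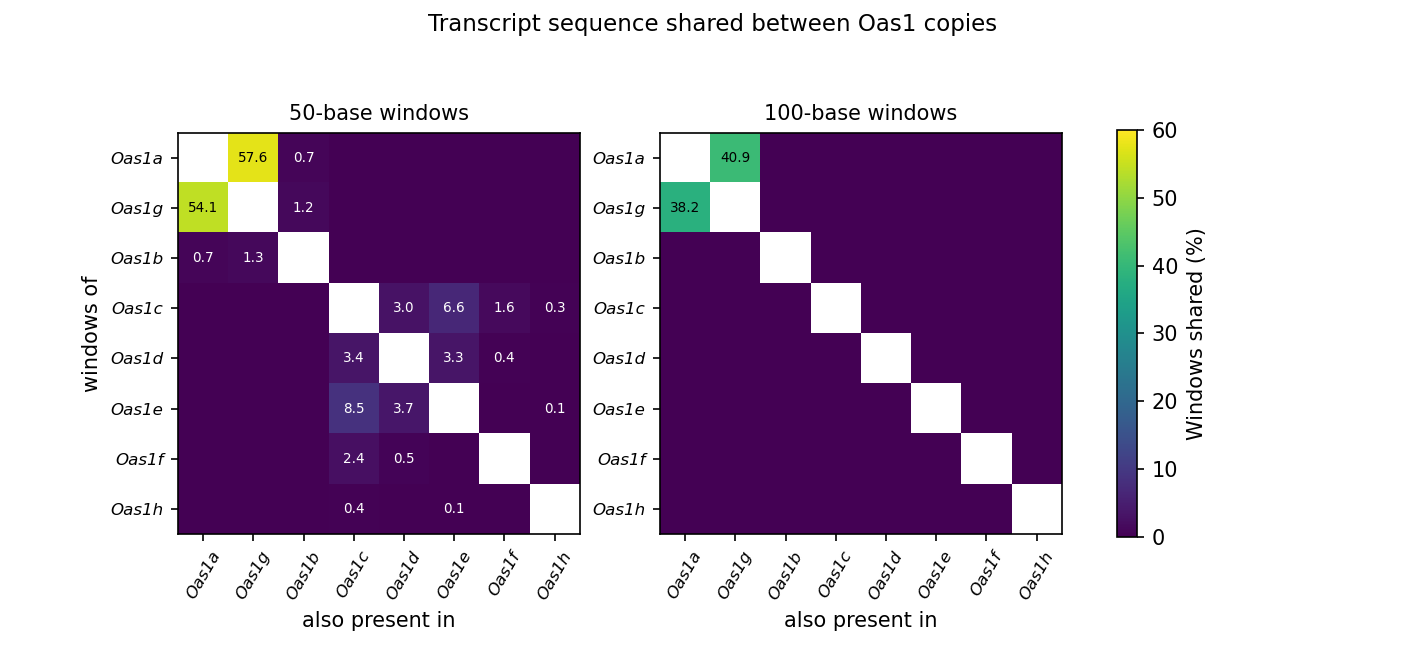
Share (%) of the windows of each Oas1 copy (rows) that also occur in another copy (columns), for windows of 50 bases (left) and 100 bases (right) along the longest coding transcript. Oas1a and Oas1g share 57.6% and 54.1% of 50-base windows, and no other pair shares more than 8.50%.

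A sum over copies is not changed by how reads are split among the copies in it. Reads shared with a copy outside the sum can still change it. Of the 50-base windows of Oas1c, 6.65% also occurred in Oas1e, which was not analysed. Oas1a and Oas1g together had 26.6, 25.4 and 27.5 CPM in shArl4c 2, 3 and 4, against 1.55, 1.88 and 1.74 CPM in shControl 1, 2 and 3. This was a 15.4-fold difference, close to the 14.8-fold of Oas1a alone. The 4 analysed copies together had 35.9, 36.4 and 36.1 CPM in shArl4c and 4.503, 5.72 and 5.54 CPM in shControl. In shArl4c the sum varied less than its parts: its SD was 0.244 CPM, against 1.33 CPM for Oas1a and 1.604 CPM for Oas1b. The reverse held in shControl, where the SD of the sum was 0.656 CPM, against at most 0.486 CPM for a part (Oas1c). The shArl4c sum rests on 494, 485 and 472 reads, whose counting error alone is larger than 0.244 CPM. With 3 libraries a group, nothing is therefore read from these SDs. Oas1a and Oas1b themselves have little sequence in common, 0.708% of the 50-base windows of Oas1a and no 100-base window. Oas1a and Oas1c were at their lowest in shArl4c 3, and Oas1b and Oas1g at their highest there. The log2 fold change of the sum was 2.57.

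The larger OAS enzymes, in which synthetase units are fused in tandem, differed about as much as Oas1a. Oas3, which favours long double-stranded RNA, had 26.3, 27.5 and 25.8 CPM in shArl4c 2, 3 and 4, against 1.62, 1.95 and 2.48 CPM in shControl 1, 2 and 3. Its log2 fold change was 3.20 (SE 0.12), second of all 14740 tested genes on this scale. By plain fold Oas3 lay below Oas1g, Oas1a and Oas2. The family was chosen on this contrast, so nothing is read from the rank. Oas2 had 23.01, 28.5 and 21.8 CPM in shArl4c 2, 3 and 4, against 1.77, 1.61 and 2.07 CPM in shControl 1, 2 and 3. As with Oas1b, the highest Oas2 value was in shArl4c 3, and the fold was 13.4 with that library and 12.3 without it. The folds of Oas1a, Oas2 and Oas3, 14.8, 13.4 and 13.1, lay inside each other's counting intervals, of which the widest was 11.2 to 19.5 for Oas1a.

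Oasl1 and Oasl2 encode OAS-like proteins with ubiquitin-like repeats at their end. In the mouse Oasl2 makes 2-5A, whereas Oasl1 does not and instead represses translation of Irf7. Oasl2 was the most abundant gene of the family in both groups, with 61.4, 60.04 and 58.5 CPM in shArl4c 2, 3 and 4, against 14.8, 16.2 and 15.9 CPM in shControl 1, 2 and 3. Its log2 fold change was 1.87 (SE 0.06), and its fold of 3.84 had the narrowest counting interval of the family, 3.51 to 4.19. Oasl1 had 3.78, 3.82 and 4.59 CPM in shArl4c 2, 3 and 4, against 0.960, 0.807 and 0.910 CPM in shControl 1, 2 and 3. The 4.55-fold difference of Oasl1 rests on 36 shControl reads in all, with an interval of 3.17 to 6.74. Both pairs of groups were separate.

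Levels of the genes can be set against each other per length of the longest coding transcript. In shArl4c, Oasl2 stood at 19.2 ± 0.460 CPM per kb, Oas1a at 10.9 ± 0.707, Oas2 at 6.17 ± 0.898, Oas3 at 5.62 ± 0.188 and Oas1b at 3.04 ± 0.875 CPM per kb. Below these lay Oas1g at 2.9999 ± 0.284, Oasl1 at 1.86 ± 0.210 and Oas1c at 1.76 ± 0.202 CPM per kb. The neighbours Oas2 and Oas3, Oas1b and Oas1g, and Oasl1 and Oas1c had overlapping libraries in this order. In shControl, Oasl2 at 5.01 ± 0.229 CPM per kb was again first, and Oas1b came next at 1.09 ± 0.228 CPM per kb, apart from both its neighbours in the order. Oas1a, Oas1c, Oas2, Oas3 and Oasl1 followed from 0.737 down to 0.409 CPM per kb, each overlapping the next, and Oas1g was last at 0.169 ± 0.107 CPM per kb. Per length, Oas1b thus stood at place 5 of 8 in shArl4c and place 2 in shControl, and Oas1g at place 6 in shArl4c and place 8 in shControl. The split between Oas1a and Oas1g bears on their places.

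The make-up of the OAS reads follows from the levels and folds above, and is given as another description of the same values. Oasl2 took 40.8%, 38.4% and 39.9% of the OAS reads in shArl4c 2, 3 and 4, against 62.6%, 61.6% and 59.1% in shControl 1, 2 and 3. The exact 95% binomial intervals reached at most 43.0% in shArl4c and down to 53.5% in shControl. Oas3 took 17.6% ± 0.0661 in shArl4c and 7.83% ± 1.24 in shControl, and Oas2 16.1% ± 1.84 and 7.10% ± 0.842. The Oas1 copies as a whole took 23.9% ± 0.663 of the OAS reads in shArl4c and 20.5% ± 1.38 in shControl. Their binomial intervals overlapped, reaching down to 21.5% in shArl4c 3 and up to 26.2% in shControl 2. Within them, Oas1a took 56.9985% ± 4.01 of the Oas1 reads in shArl4c and 26.6% ± 4.94 in shControl, while Oas1b took 15.4% ± 4.34 and 38.2% ± 7.16.

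**Figure D4:**
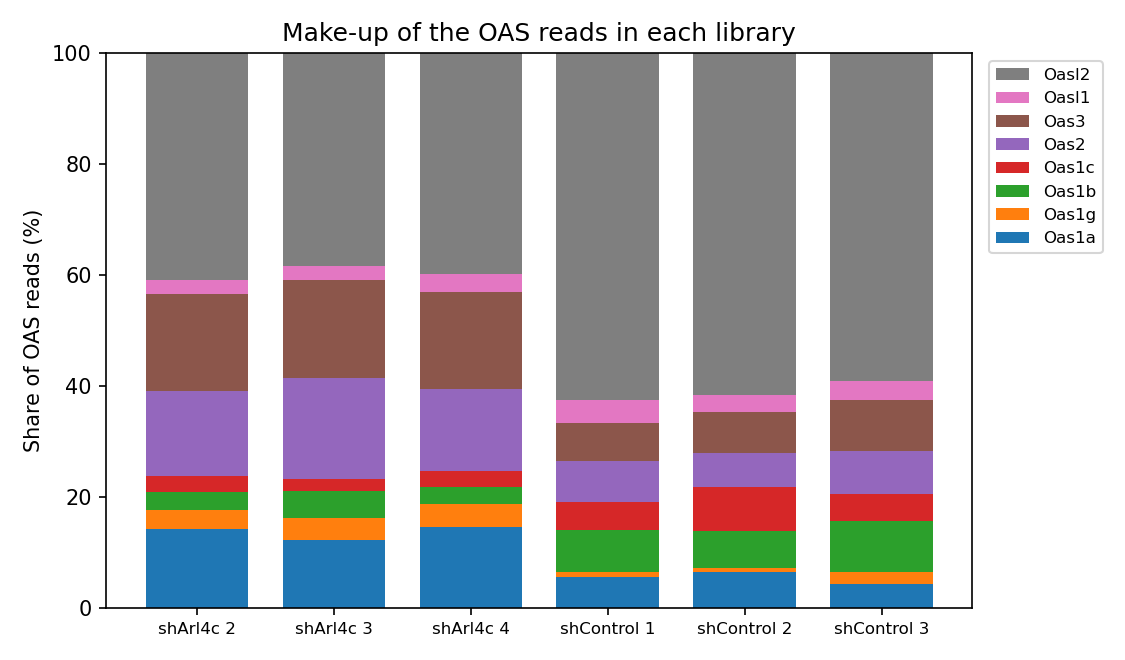
Share of the OAS reads (%) taken by each gene in each library, stacked to 100%. Oasl2 takes about 40% in the 3 shArl4c libraries and about 60% in the 3 shControl libraries, and Oas1a, Oas2 and Oas3 take more in shArl4c.

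The folds are set beside the promoters above as a description. Oas1a, Oas1g and Oas3, which had a match, stood 14.8-, 17.8- and 13.1-fold higher in shArl4c, and Oas1c, also with a match, stood 2.63-fold higher. Oas1b, whose annotated start lies beside the match in the Oas1c promoter but whose own promoter was not searched, stood 2.79-fold higher. Oasl1 and Oasl2, with none in this window, stood 4.55- and 3.84-fold higher. No promoter of Oas2, at 13.4-fold, was searched either. Among other genes, 7 of 17 promoters of the interferon-induced effectors listed below held the core, so genes of this kind can lack it in this window. The part of the match in the folds was not tested.

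The other genes of the pathway were described by 4 lists. Of their 49 genes, all of them tested, 35 rose, 2 fell and 12 did not pass limma's test (adjusted p of 0.05 over all genes). Of all tested genes, 18.9% were called higher and 18.0% lower. The lists were drawn up knowing that interferon-induced genes rose in these libraries, so the counts are not independent evidence of a direction. Without shArl4c 3, 35 rose and 2 fell, but these were not all the same genes. Of the signalling genes 8 of 13 rose then, against 7 with all libraries. Of the effectors 20 of 21 tested rose, against 21 of 22.

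Enzymes that break down 2-5A moved little. Pde12, a phosphodiesterase gene of this kind, stood at 27.9 ± 1.07 CPM in shArl4c and 25.1 ± 1.57 CPM in shControl and did not pass (limma adjusted p = 0.113). Akap7, an anchoring protein gene whose product can also degrade 2-5A, rose 1.32-fold to 12.5 ± 0.889 CPM in shArl4c, against 9.48 ± 1.12 CPM in shControl (limma adjusted p = 0.00826). That call was lost with DESeq2 and without shControl 2, with adjusted p up to 0.0515.

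Of 10 interferon genes searched, 1 was analysed, and it was low in both groups. Ifnk stood at 0.152 ± 0.153 CPM in shArl4c and 0.340 ± 0.0815 CPM in shControl, with at most 6 reads in a library. The other 9 were not analysed here. Of 13 genes of interferon receptors and signalling, 7 rose, 2 fell and 4 were not called. Their median log2 fold change was 0.21, against 0.01 over all tested genes. Stat2, of the complex that binds the ISRE, rose 1.67-fold to 81.8 ± 4.57 CPM in shArl4c, against 49.0 ± 2.69 CPM in shControl (limma adjusted p = 4.34e-09). Irf9, its partner in that complex, rose 1.52-fold to 32.3 ± 1.18 CPM in shArl4c, against 21.2 ± 2.44 CPM in shControl (limma adjusted p = 6.87e-06). Irf7, the interferon regulatory factor whose translation Oasl1 represses in the mouse, rose 2.36-fold to 23.5 ± 1.505 CPM in shArl4c, against 9.95 ± 1.10 CPM in shControl.

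Usp18, which removes ISG15 from proteins and damps the interferon receptor, rose 3.54-fold to 19.9 ± 2.24 CPM in shArl4c, against 5.62 ± 0.479 CPM in shControl, and Isg15 2.01-fold to 23.8 ± 2.70 CPM. Socs1, another feedback inhibitor, stood at 9.04 ± 0.915 CPM in shArl4c and 8.44 ± 0.921 CPM in shControl and did not pass (limma adjusted p = 0.589). The receptor subunit gene Ifnar1 fell to 55.9 ± 3.74 CPM in shArl4c, against 64.3 ± 1.89 CPM in shControl, and the kinase gene Jak1 fell to 216 ± 4.996 CPM, against 251 ± 12.3 CPM. The call of Ifnar1 was lost without shArl4c 4 or without trend and robust moderation. Tyk2, the other receptor kinase, rose 1.17-fold to 28.0 ± 0.780 CPM in shArl4c, a call lost in 4 alternatives.

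Of 12 genes of double-stranded RNA sensors and binders, 6 rose, 6 were not called and none fell. Their median log2 fold change was 0.33. Zbp1, a sensor of Z-form nucleic acid, rose 4.14-fold to 10.8 ± 0.905 CPM in shArl4c, against 2.61 ± 0.169 CPM in shControl. The RIG-I-like receptor genes Ifih1 and Dhx58 rose 2.73- and 2.55-fold, and Rigi, listed as Ddx58, 1.45-fold. Eif2ak2, encoding the kinase PKR that stops translation on binding double-stranded RNA, rose 1.51-fold to 103 ± 3.11 CPM, and Adar, which edits such RNA, 1.52-fold to 77.5 ± 0.496 CPM. The largest limma adjusted p among these 6 was 3.92e-08. Mavs, Tlr3, Dicer1, Prkra, Stau1 and Dhx9 did not pass, and their log2 fold changes ran from -0.10 to 0.13.

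Of 22 interferon-induced effectors, 21 rose and 1 was not called, and the median log2 fold change was 1.14. Their log2 fold changes ran from -0.10 for Isg20, the gene that did not pass, to 2.21 for Rsad2, which encodes viperin and rose 6.94-fold. Cmpk2, a nucleotide kinase gene next in fold, rose 4.70-fold to 6.57 ± 0.216 CPM in shArl4c, against 1.40 ± 0.127 CPM in shControl. Parp14, an ADP-ribosyltransferase gene, rose 3.11-fold to 40.0 ± 3.19 CPM, and Ifit1, whose product binds foreign RNA ends, 2.29-fold to 49.5 ± 2.69 CPM. Mx1, an antiviral GTPase gene, rose 2.55-fold at low levels, 1.57 ± 0.321 CPM in shArl4c and 0.616 ± 0.0436 CPM in shControl. Oas1a, Oas2 and Oas3 (3.17 to 3.20) and Oas1g (2.39) had log2 fold changes above all 49 genes of the 4 lists. Since the family was chosen on this contrast, nothing is read from that order.

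**Figure D5:**
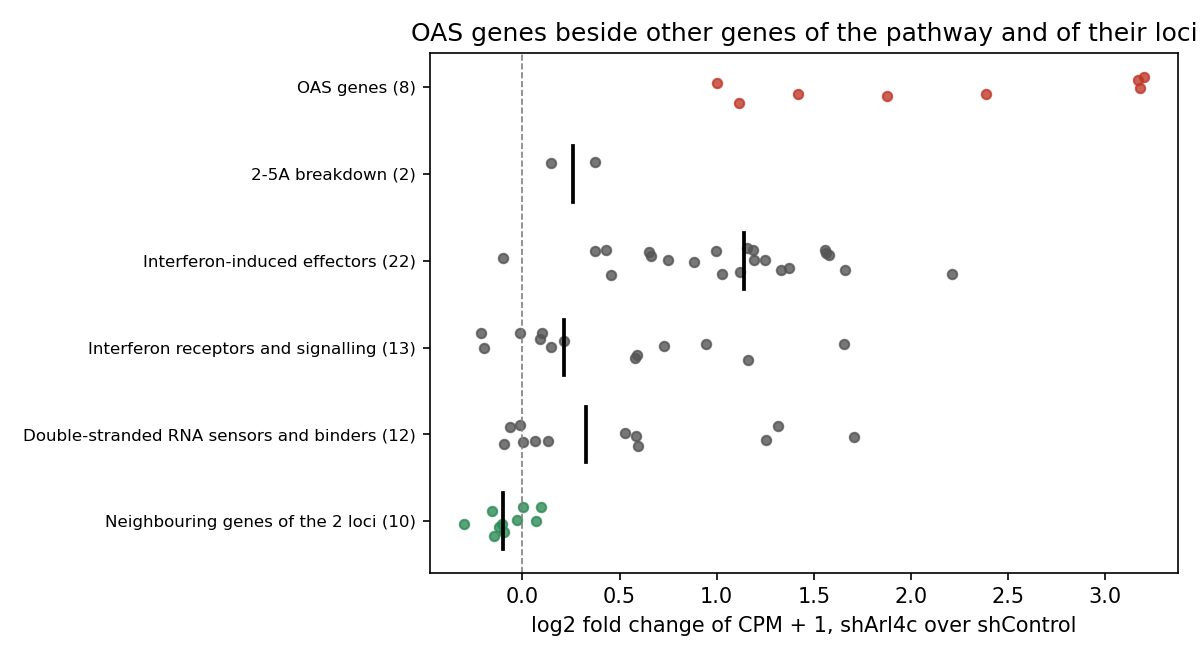
Log2 fold change of CPM + 1 (shArl4c over shControl) of the 8 OAS genes, the 4 pathway lists and the tested neighbours of the 2 loci; each point is 1 gene and black bars are list medians. The OAS genes run from 1.004 to 3.20, and the effector median is 1.14.

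Genes next to the family members were compared as well, to see whether the loci moved as a whole. The OAS genes lie on chromosome 5, as the Oas1, Oas2 and Oas3 cluster and the Oasl1 and Oasl2 pair, in the order of the GRCm38.p6 gene table. Of the 12 nearest coding genes, 3 on each side of each locus, 10 were tested. Of these, 3 fell (Git2, Ankrd13a and Sppl3), 7 did not pass and none rose, with log2 fold changes from -0.30 to 0.09 and a median of -0.10. Over all tested genes, 36.9% were called, 18.0% lower and 18.9% higher, and the median was 0.01. With 10 genes tested, nothing about these loci is read from the count. Without shArl4c 3, 5 fell and 1, the ribosomal protein gene Rpl6, rose (limma adjusted p = 8.81e-05, against 0.103 with all libraries). In the other alternatives run, the neighbours called all fell. The count called was 6 without shArl4c 3, 1 without shControl 2, 1 without shControl 3, 1 with DESeq2 and 5 with edgeR. Beside the Oas1, Oas2 and Oas3 cluster, Ddx54, an RNA helicase gene, stood at 87.8 ± 5.32 CPM in shArl4c and 87.6 ± 2.72 CPM in shControl, and the phosphatase gene Ptpn11 at 287 ± 4.44 and 307 ± 9.61 CPM. Beside Oasl1 and Oasl2, Ankrd13a fell to 103 ± 6.24 CPM in shArl4c, against 127 ± 5.30 CPM in shControl (limma adjusted p under all alternatives at most 0.0147).

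The 5 genes whose profile over the 6 libraries was closest to the mean of the 8 members were Gas7, Aldh3a1, Rsad2, Msln and Itgb7, out of 11277 genes that averaged 5 CPM or more. Likeness was the Euclidean distance between centred log2 values, and ran from 0.185 for Gas7 to 0.333 for Itgb7, an integrin subunit gene. Gas7 had 35.9, 35.8 and 36.8 CPM in shArl4c 2, 3 and 4, against 7.82, 7.26 and 7.86 CPM in shControl 1, 2 and 3. Msln, which encodes the surface protein mesothelin, had 104, 96.7 and 106 CPM in shArl4c 2, 3 and 4, against 18.8, 23.3 and 19.2 CPM in shControl 1, 2 and 3. Rsad2 is the 1 gene of the 5 that was also on a pathway list. With only 2 groups of libraries, such a likeness is mostly a difference of like size between them.

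Leukocyte markers were searched as a check for RNA of white blood cells, and 6 of those listed were too low to test. Of 14 markers, 9 were listed, and their summed level was 9.51 to 10.9 CPM in shArl4c and 7.03 to 8.41 CPM in shControl. The pan-leukocyte gene Ptprc was at 0.0505 ± 0.0437 CPM in shArl4c and 0.0940 ± 0.0817 CPM in shControl, and Itgam at 0.0250 ± 0.0433 and 0.122 ± 0.0343 CPM, all under the level of 3 reads. Cd68, a lysosomal gene of macrophages that other cells also express, was the 1 marker that rose, to 5.77 ± 0.207 CPM in shArl4c, against 2.79 ± 0.397 CPM in shControl (limma adjusted p = 6.98e-05). The part of these genes in the OAS values was not tested.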

How the data were processed

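RNA from 6 mDE6 samples was sequenced after a directional MGI library preparation, per the labels' protocols. The authors deposited 1 table of CPM per gene, made with Trimmomatic 0.38, RSEM 1.3.0, Bowtie2 and edgeR on GRCm39, per the submitters' processing notes, which give no order, settings or strand handling. Overlapping genes on opposite strands may therefore share reads. Columns named shluc were taken as shControl and those naming the hairpin (numbered 2 to 4, with a misspelt gene name) as shArl4c, by group and not by sample. Every value was a whole multiple of its column's smallest value (100% within 0.001 of a read), which gave whole counts, called reads here. With RSEM in the processing these may be rounded estimates. The counting intervals do not cover the split of reads between similar copies. Identifiers matched a symbol for 21880 genes, 152 did not, and 21 shared one.

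Log2(CPM + 1) of genes averaging at least 1 CPM was fitted with limma 3.58.1 in R 4.3.3 (trend and robust moderation, no covariate), with Benjamini-Hochberg adjustment over 14740 genes. This scale understates changes of low genes. All 8 members passed the filter, 2 of them (Oas1g and Oasl1) with a shControl mean under 1 CPM. Intervals are exact (Clopper-Pearson, 95%) and cover counting error only, since reads are not independent molecules. The recovered reads were also tested with edgeR 4.0.16, which called 5376 genes, and DESeq2 1.42.0, which called 4108. Promoters are RefSeq's.

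Some genes of the pathway are not reported here, and counts leave them out. The members and lists were chosen with earlier results of these data known. Named genes were the members, Arl4c, the listed pathway, marker and neighbouring genes, and the 5 closest profiles.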

Additional observations from a re-analysis of the deposited data

How the results depend on the processing

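The 8 OAS genes stayed higher in shArl4c under the 15 alternatives wherever they passed the filter. The alternatives were another pseudocount, filter or scaling, limma without trend and robust moderation, edgeR, DESeq2, and each library left out. The log2 fold change of each was lowest with a pseudocount of 5 and highest with DESeq2, as for Oas1g (1.03 and 4.19). For the summed Oas1 copies the log2 fold change was 2.01 with a pseudocount of 5, 2.76 with edgeR and 2.77 with DESeq2, and 2.485 to 2.63 with a library left out; no filter bears on this sum, and limma's moderation does not change it. The genes called numbered 4347 to 6625 with a library left out. Pathway genes that fell numbered 1 without limma's trend and robust moderation and 1 to 2 with a library left out. Called neighbours numbered 1 without that moderation, 1 with DESeq2, 5 with edgeR and 1 to 6 with a library left out. The causes of these shifts were not tested. Over 731 pairs of a pathway gene and an alternative, no call reversed, 8 were lost and 1 gained. No paired analysis was possible because the shArl4c columns, numbered 2 to 4, could not be matched to their sample titles, numbered 1 to 3. Depth limits Oas1g, with 13 shControl reads, most.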
